A study of Mus musculus with 4 samples.

Results

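The 3 alpha actins Acta1, Actc1 and Acta2 and the 5 sarcomeric myosin light chains Myl1, Myl3, Myl4, Mylpf and Myl2 were followed in single myogenic progenitors (MPs) of regenerating mouse muscle. The genes were picked by name, as the rows of the count tables with these symbols, and make up 8 of the 25827 genes listed. The rule uses no measured value, but the set was proposed with earlier results of these data known.

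Actin forms the thin filament of the sarcomere, the contractile unit of muscle, and myosin forms the thick filament. Skeletal muscle fibres use the skeletal alpha actin Acta1, the heart uses mainly the cardiac alpha actin Actc1, and smooth muscle uses Acta2, but all are made for a time when muscle forms or regenerates. Each myosin head carries an essential and a regulatory light chain that stiffen its lever arm. Myl1 is the essential chain of fast fibres, Myl3 that of slow fibres and the ventricle, and Myl4 that of embryonic muscle and the atrium. Mylpf is the regulatory chain of fast fibres and Myl2 that of slow fibres and the ventricle.

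The 3 actin genes are known targets of serum response factor, which binds a motif called the CArG box. The proximal promoters of the 3 actin genes are shown because each of these genes rose at commitment, as described further on. They rose by different factors and from very different levels, and a shared cause was not tested. The promoters are the RefSeq sequences from 250 bases before to 50 after the annotated gene start, and the build is GRCm38.p6. Each lies on the minus strand and is written 5′ to 3′ in the direction of transcription. The Acta1 window is chr8:123894726-123895025, the Actc1 window chr2:114052826-114053125 and the Acta2 window chr19:34255324-34255623. Capitals mark a full match to the CArG box.
Acta1: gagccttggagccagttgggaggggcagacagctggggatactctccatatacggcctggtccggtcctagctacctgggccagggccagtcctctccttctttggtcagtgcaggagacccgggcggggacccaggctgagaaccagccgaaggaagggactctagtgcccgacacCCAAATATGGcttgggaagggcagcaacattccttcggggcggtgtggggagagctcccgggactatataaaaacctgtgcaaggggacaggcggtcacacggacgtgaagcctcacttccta
Actc1: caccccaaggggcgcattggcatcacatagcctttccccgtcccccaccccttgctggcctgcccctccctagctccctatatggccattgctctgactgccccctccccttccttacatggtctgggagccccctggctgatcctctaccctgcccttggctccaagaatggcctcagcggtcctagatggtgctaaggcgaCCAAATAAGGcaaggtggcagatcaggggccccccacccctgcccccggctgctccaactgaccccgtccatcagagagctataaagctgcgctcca
Acta2: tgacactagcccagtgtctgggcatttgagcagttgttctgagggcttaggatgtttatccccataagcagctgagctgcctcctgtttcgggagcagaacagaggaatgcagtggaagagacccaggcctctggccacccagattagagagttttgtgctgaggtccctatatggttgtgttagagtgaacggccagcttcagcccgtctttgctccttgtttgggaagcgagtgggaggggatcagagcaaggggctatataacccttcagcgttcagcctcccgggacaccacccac

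The CArG box began 73 bases before the annotated start in Acta1 and 47 bases before it in Actc1. A full CArG box was held by the promoters of 3 of the 8 genes (Acta1, Actc1 and Myl3) and by 1.63% of all 32851 promoters of this length. Near matches with a C or G in the A/T core did not count, such as ccctatatgg and ccttgtttgg in the printed Acta2 sequence. The MEF2 site was in the promoters of 0 of the 8 and in 1.86% of all. The E-box CANNTG was in 7 of the 8 (not Myl4) and in 72.3% of all, and the TATA box TATAAA was in 4 of the 8 (Acta1, Actc1, Myl1 and Myl2) and in 13.6% of all. From the annotated start, the TATAAA matches lay at -7 bases in Acta1, 33 in Actc1, -95 in Myl1 and -216 in Myl2. The start used in these cells was not measured. Both strands were searched and overlaps between motifs were kept. Myl2 has 2 annotated starts, and a match in either promoter counted. These are matches of letters and not measured binding sites.

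The cells came from tibialis anterior muscle of 12-week-old mice, taken 6 days after muscle fibres had been destroyed with the snake toxin cardiotoxin. There were 2 libraries from Pax7Cre mice, in which Cre recombinase is driven by the gene of the satellite cell factor Pax7, and 2 from miR-501KO mice, which carry the same Cre and a floxed miR-501 gene. The control thus carried the Cre too, and deletion can take place only in cells that express Pax7 or descend from such cells. Each library was a pool of 3 mice, and replicates 1 and 2 of both groups came from run 1 and run 2. Cells had been sorted for alpha7 integrin and against CD45, CD31 and Sca1. Libraries were the replicates in every test, so the spread is that between pools and not between single mice. The mature miR-501 has no poly(A) tail and is not counted by this assay, so the deletion could not be checked here.

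The 4 libraries gave between 1829 and 3439 cells (10450 in all) with a median depth between 25254 and 34579 UMIs (unique molecular identifiers, 1 for each captured RNA molecule). Only 3 to 7 cells of a library had a barcode that another library also used. Of 18 clusters, 6 were named as MPs, in classes of 1411 committed-like, 1829 cycling-like and 2911 quiescent-like cells. Macrophage-like (341 cells), mural-like (259), Schwann-like (191) and myofibre-like (30) clusters had also passed the sort, as had unnamed clusters led by Tnmd and Lum (228 cells, with 8 of 8 fibroblast markers raised) and by Cdh5 and Gpihbp1 (21 cells, with 7 of 7 endothelial markers raised). Of the 30 myofibre-like barcodes, 18 came from Pax7Cre replicate 2. Their median share of mitochondrial UMIs was 0.0490%. Another 3 clusters, with 744 cells, drew over 90% of their cells from a single library. Of those 744 cells, 739 belonged to miR-501KO replicate 1, and 737 of these held Myog RNA and so entered the Myog+ gate below. Levels in the Myog+ gates are given with and without the 3 clusters, and the changes of Acta1, Myl1 and Mylpf over all cells with and without the myofibre-like barcodes. Spread and correlation over single Myog+ cells leave the 3 clusters out.

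Over all cells, Acta2 gave the most molecules, with 672716 UMIs in 9964 cells (ENSMUSG00000035783). Acta1 (ENSMUSG00000031972) had 400438 UMIs, Mylpf (ENSMUSG00000030672) 376015, Actc1 (ENSMUSG00000068614) 215742, Myl1 (ENSMUSG00000061816) 205247 and Myl4 (ENSMUSG00000061086) 92834. The slow chains were nearly silent, with 205 UMIs of Myl2 (ENSMUSG00000013936) in 110 cells and 38 of Myl3 (ENSMUSG00000059741) in 25 cells. Since 1 UMI stands for 1 molecule captured at its 3′ end, these counts compare between genes without a correction for length. In the last 500 bases of the transcripts, 2.38% of the 60-base windows of Acta1 also occurred in Actb or pseudogenes, and 20.1% of those of Myl1 in the pseudogene Mylf-ps. The other 6 genes shared none, so the 3 actins could be told apart from each other.

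Levels are given below as CPM, the UMIs of a gene for every 1000000 UMIs in the cells summed. Cells were sorted into gates by Pax7, which marks satellite cells, and by Myog, which encodes myogenin and marks cells committed to differentiation, after each cell had been thinned at random to 5000 UMIs. The Pax7+ Myog- gate held 876, 595, 607 and 744 cells in Pax7Cre replicates 1 and 2 and miR-501KO replicates 1 and 2, the order used for all values that follow. The Pax7+ Myog+ gate held 153, 58, 173 and 110 cells, of which 87 in miR-501KO replicate 1 were from the single-library clusters. The Pax7- Myog+ gate held 980, 414, 1166 and 497 cells, of which 650 in miR-501KO replicate 1 were from those clusters.

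The first comparison asked how the 8 genes change as progenitors commit. Between Pax7+ Myog- and Pax7- Myog+ cells, 7 of the 8 genes rose in edgeR's quasi-likelihood test with the library as a block, while 50.7% of the 13629 genes tested changed and 25.7% were higher. Myl3 was too low to be tested. The calls held for all 7 genes in all 15 alternative settings. Without the single-library clusters, the Pax7- Myog+ cells of miR-501KO replicate 1 numbered 516 and held 2666 CPM of Acta1, 2016 of Actc1, 2896 of Acta2, 1057 of Myl1, 970 of Myl4 and 1916 of Mylpf. The values below include those clusters.

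**Figure D1:**
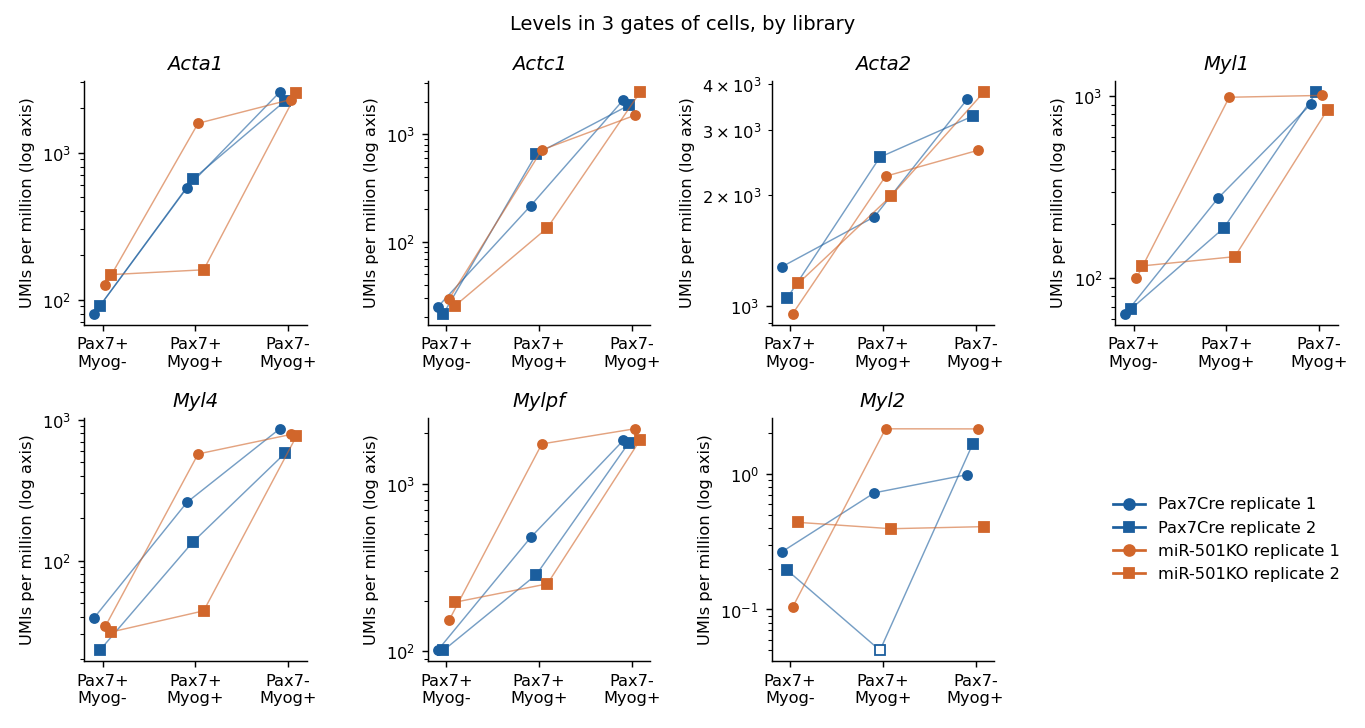
Level of 7 of the genes (CPM, log axis) in the 3 gates, with 1 symbol per library; an open symbol at 0.05 marks a library with 0 UMIs. Each of Acta1, Actc1, Acta2, Myl1, Myl4 and Mylpf was higher in every library's Pax7- Myog+ cells than in its Pax7+ Myog- cells, and the middle gate spread widely between libraries.

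Acta1, the actin of adult skeletal muscle, stood at 80.4, 90.4, 125 and 148 CPM in Pax7+ Myog- cells and at 2572, 2247, 2291 and 2517 CPM in Pax7- Myog+ cells. The gates did not overlap, and the committed cells of the 4 libraries, with myofibre-like barcodes included, lay close together. The ratio within a library was 32.0, 24.8, 18.3 and 17.0, and the fitted log2 change was 4.63 (SE 0.50, edgeR adjusted p = 9.71e-06).

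Actc1, the cardiac actin, had the largest fitted change of the 7 tested. It rose from 25.1, 21.7, 29.6 and 25.4 CPM to 2080, 1852, 1489 and 2447 CPM. Before commitment it was the lowest of the 3 actins in every library, and after it the ratio to the earlier level was 82.8, 85.4, 50.3 and 96.2. The log2 change was 6.49 (SE 0.50, edgeR adjusted p = 6.38e-07).

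Acta2, the actin of smooth muscle, was already abundant in Pax7+ Myog- cells, at 1275, 1050, 952 and 1150 CPM. In Pax7- Myog+ cells it reached 3634, 3271, 2644 and 3800 CPM. Every library rose by a similar factor, 2.85, 3.12, 2.78 and 3.30, and Acta2 remained the most abundant of the 3 actins in both gates. The log2 change was 1.77 (SE 0.16, edgeR adjusted p = 3.1e-06).

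Among the essential light chains, Myl1 went from 64.1, 67.9, 100.3 and 117 CPM to 907, 1056, 1013 and 847 CPM. The embryonic chain Myl4 went from 39.4, 23.1, 34.2 and 31.1 CPM to 862, 581, 786 and 765 CPM. Both rose in every library without overlap of the gates, Myl1 by 14.2, 15.6, 10.1 and 7.23 times and Myl4 by 21.9, 25.2, 23.0 and 24.6 times. The log2 change was 3.64 (SE 0.44) for Myl1 and 4.74 (SE 0.48) for Myl4 (edgeR adjusted p = 2.77e-05 and 6.46e-06). Myl3, the slow chain, gave 5 UMIs in all Pax7+ Myog- cells and 9 in all Pax7- Myog+ cells. No level of Myl3 can be read from so few molecules.

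The regulatory chain of fast fibres, Mylpf, rose from 101.5, 101.1, 153 and 196 CPM to 1820, 1764, 2130 and 1829 CPM, which was 17.9, 17.4, 13.9 and 9.34 times (log2 change 3.96, SE 0.45, edgeR adjusted p = 1.48e-05). Myl2 gave 7, 4, 2 and 9 UMIs in Pax7+ Myog- cells and 34, 31, 65 and 7 in Pax7- Myog+ cells. It was thus higher in 3 libraries and not in miR-501KO replicate 2, where it stood at 0.438 and 0.407 CPM. The fitted log2 change of Myl2 was 2.37 (SE 0.57, edgeR adjusted p = 0.00394), from 22 UMIs in the first gate and 137 in the second.

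The low levels in Pax7+ Myog- cells were set against macrophage-like cells, a cell type not known to make most of these proteins, in which UMIs of them can come from free RNA in the droplets. After thinning to 5000 UMIs, 30.8% of Pax7+ Myog- cells held an Acta1 UMI (95% Wilson interval 29.2 to 32.6) and 26.1% of macrophage-like cells did (21.7 to 31.0). The shares were 33.8% and 33.4% for Mylpf and 12.5% and 15% for Actc1. For these 3 genes the intervals overlapped, which does not show that the shares were equal. The intervals pool the cells of all libraries and leave out the spread between libraries. The levels in the same cells were 109 against 70.0 CPM for Acta1, 135 against 85.8 CPM for Mylpf and 25.4 against 59.8 CPM for Actc1. For Acta2 the share was 80.6% (79.1 to 82.0) against 36.7% (31.7 to 41.9), and for Myl1 25.4% (23.8 to 27.0) against 16.4% (12.9 to 20.7). The Myl4 shares were 14.4% and 10.3%, with intervals that overlapped. In Pax7- Myog+ cells the shares were between 50.8% (Myl4) and 96.4% (Acta2). The cells had a median of 27727 UMIs in the Pax7+ Myog- gate, 29481 in the Pax7- Myog+ gate and 18702 among macrophage-like cells. How much of the level in Pax7+ Myog- cells was free RNA was not tested. Before thinning, 73.4% of Pax7+ Myog- cells and 61.3% of macrophage-like cells held Acta1.

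Cells that held both Pax7 and Myog RNA lay between the other gates on average, but their libraries did not agree. Against Pax7+ Myog- cells, 521 of 13629 genes changed (3.82%), 355 of them upward (2.6%), and 6 of the 8 genes rose. Against these cells, Pax7- Myog+ cells differed in 2891 genes (21.2%), 1509 of them higher (11.1%), and the same 6 genes rose again. Myl2 was not called in either comparison (edgeR adjusted p = 0.309 and 0.608).

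Acta1 stood at 576, 656, 1579 and 160 CPM in Pax7+ Myog+ cells. In miR-501KO replicate 2 this was 1.08 times the level of the Pax7+ Myog- cells, and in the other libraries 7.16 to 12.6 times. Outside the single-library clusters, the value of miR-501KO replicate 1 was 1232 CPM. The fitted log2 change was 2.64 (SE 0.48, edgeR adjusted p = 0.00827) to this gate and a further 2.0 (SE 0.46, adjusted p = 0.00886) to Pax7- Myog+ cells.

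Actc1 stood at 217, 653, 713 and 135 CPM, between 5.32 and 30.1 times its Pax7+ Myog- level. Its log2 change was 4.02 (SE 0.46, edgeR adjusted p = 0.000402) to the double-positive cells and 2.47 (SE 0.43, adjusted p = 0.00177) from there on. Actc1 was the gene among the 8 that kept both calls in every alternative setting. Acta2 stood at 1743, 2531, 2246 and 1987 CPM, 1.37 to 2.41 times its earlier level, with log2 changes of 1.01 (SE 0.16, adjusted p = 0.00412) and 0.75 (SE 0.16, adjusted p = 0.00619). Outside the single-library clusters, the mean over the 4 libraries was 375 CPM for Actc1 and 2096 CPM for Acta2. With those clusters the means were 429 and 2127 CPM.

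The light chains showed the same wide spread. Mylpf stood at 478, 286, 1730 and 252 CPM, Myl1 at 276, 189, 989 and 132 CPM and Myl4 at 260, 135, 572 and 44.0 CPM, with miR-501KO replicate 1 highest and replicate 2 lowest for each. Outside the single-library clusters, miR-501KO replicate 1 gave 1071 CPM of Mylpf, 1008 of Myl1 and 580 of Myl4. The log2 change to this gate was 2.07 (SE 0.44, edgeR adjusted p = 0.0196) for Mylpf, 1.95 (SE 0.44, adjusted p = 0.0269) for Myl1 and 2.78 (SE 0.47, adjusted p = 0.00558) for Myl4. From there to Pax7- Myog+ cells it was 1.90 (SE 0.43, adjusted p = 0.00787), 1.69 (SE 0.43, adjusted p = 0.0147) and 1.96 (SE 0.45, adjusted p = 0.00862). A barcode with both RNAs can hold 2 cells, and this was not tested.

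Several calls at these 2 steps were lost when a library was left out, while the fitted changes kept their direction. The log2 change of Acta1 at the first step was 2.59 and 2.55 without Pax7Cre replicates 1 and 2, and that of Myl1 was 1.90 and 2.10. Without Pax7Cre replicate 1, the first step lost Acta1 (edgeR adjusted p = 0.0506), Myl1 (0.125) and Mylpf (0.0977), and the second lost Acta1 (0.0712), Acta2 (0.0536), Myl1 (0.0934), Myl4 (0.0597) and Mylpf (0.0629). Without Pax7Cre replicate 2, the first step lost Acta1 (adjusted p = 0.0754), Acta2 (0.0612), Myl1 (0.0866) and Mylpf (0.0661), and the second lost Acta1 (0.0508), Myl1 (0.104), Myl4 (0.0601) and Mylpf (0.0653). Without miR-501KO replicate 2, the second step lost Acta2 (0.0769).

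Other genes of the sarcomere were counted by list, to place the 8 genes among their partners. Between Pax7+ Myog- and Pax7- Myog+ cells, 21 of 21 tested genes of the Z-disc and giant proteins rose, with a median log2 change of 3.62. Of 16 thin filament genes, 13 rose and 1 fell (median 2.92), and of 11 thick filament genes tested, 8 rose and 1 fell (median 4.85). The median over all genes tested was -0.02. Among the 3 most abundant of each list were the embryonic myosin heavy chain Myh3 (log2 change 7.24), Mybph (7.03) and the troponin Tnnt2 (4.25), and Ttn, which encodes titin, changed by 3.11 (edgeR adjusted p from 4.5e-08 to 4.58e-07 for these 4). Mybpc1, a myosin-binding protein, was the thick filament gene that fell (-0.58, adjusted p = 0.00167). The tropomyosins Tpm2 (2.14) and Tpm1 (1.18), the chaperone Cryab (1.92) and desmin, Des (0.75), rose less.

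Of 9 tested genes listed as non-muscle and smooth muscle actins and light chains, 4 rose and 0 fell (median 0.15). This list also held the kinase Mylk. The 4 were Myl6b (log2 change 2.76, edgeR adjusted p = 8.03e-06), Myl9 (0.78, adjusted p = 0.000608), Actg2 (0.73, adjusted p = 0.0163) and Myl12b (0.39, adjusted p = 0.0117), named after their values were seen. The cytoplasmic actins Actb (log2 change 0.03, edgeR adjusted p = 0.864) and Actg1 (0.10, adjusted p = 0.552) and the non-muscle chain Myl6 (0.15, adjusted p = 0.418) were not called. Of 7 tested kinases and phosphatase subunits that act on light chains, 2 rose and 2 fell (median -0.08). Of 6 tested SRF and MEF2 factors, which bind promoters of sarcomere genes, 4 rose (median 0.86). They included Mef2c (3.92), Mef2a (1.70) and Mef2d (1.40), with edgeR adjusted p of 2.08e-06, 1.74e-07 and 7.66e-07. Mef2c was also 1 of the markers used to name committed-like clusters.

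At the first step, from Pax7+ Myog- to Pax7+ Myog+ cells, 7 of 11 tested thick filament, 11 of 16 thin filament and 12 of 21 Z-disc genes rose and none fell, where 2.6% of all genes were higher. In the other lists, 1 of 7 kinases and phosphatase subunits, 1 of 9 non-muscle and smooth muscle genes and 3 of 6 SRF and MEF2 factors rose. At the second step, where 11.1% of all genes were higher, 5 of 11 thick filament, 12 of 16 thin filament and 18 of 21 Z-disc genes rose and 1 thick filament gene fell. Of the kinases and phosphatase subunits, 1 of 7 rose and 1 fell, and 2 of 9 non-muscle and smooth muscle genes and 3 of 6 SRF and MEF2 factors rose.

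The level in each cluster class followed, with the sarcomere genes left out of the clustering. Quiescent-like cells (2911 cells) held 158 CPM of Acta1, 35.4 of Actc1, 652 of Acta2, 121 of Myl1, 37.8 of Myl4 and 188 of Mylpf. Cycling-like cells (1829) held more Acta2 (1571 CPM) and Actc1 (75.0 CPM), but less Acta1 (61.3 CPM), Myl1 (42.8 CPM) and Mylpf (92.4 CPM). These values are sums over 4 libraries and carry no test.

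Committed-like cells fell into a larger cluster of 1214 cells and a smaller one of 197. In the larger cluster Actc1 stood above Acta1, at 2259 against 1150 CPM, while Myl1, Myl4 and Mylpf were at 353, 291 and 578 CPM. In the smaller cluster Acta1 was at 13988 CPM and Actc1 at 6302, and Mylpf reached 10672, Myl1 5409 and Myl4 4996 CPM. Acta2 differed least between them, at 3902 and 5488 CPM.

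**Figure D2:**
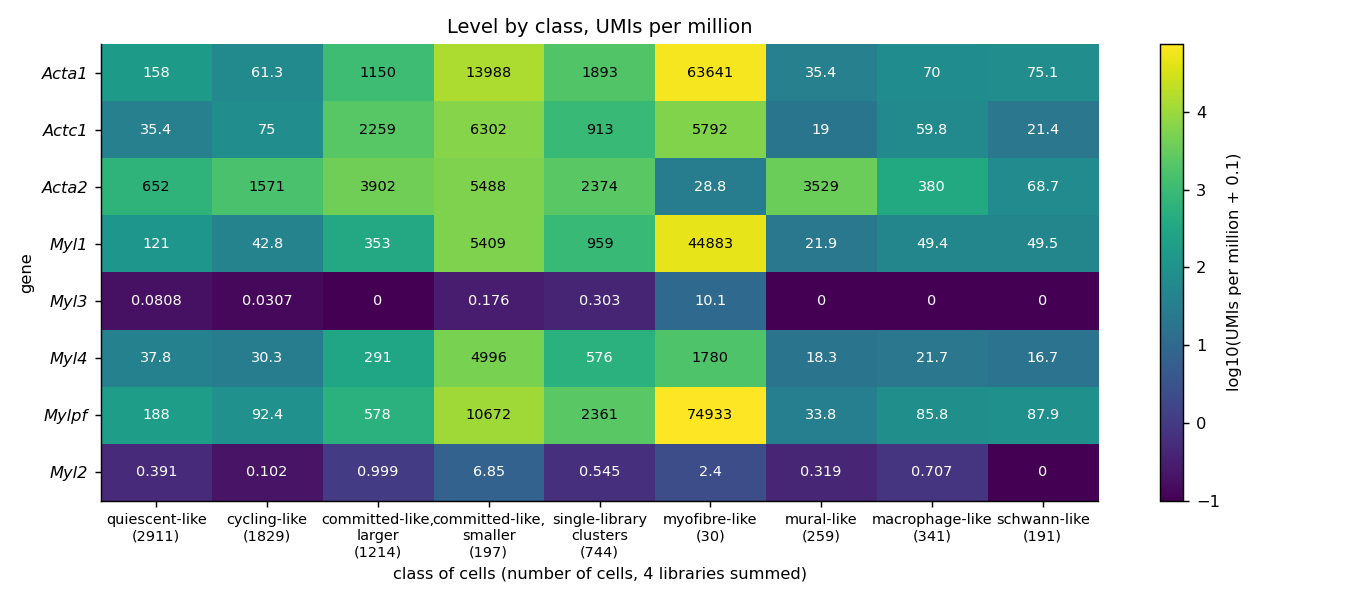
Heat map of the level of the 8 genes (rows) in each class of cells (columns, with the number of cells), 4 libraries summed; colour is log10 of CPM plus 0.1 and the printed numbers are CPM. Mylpf reached 74933 in myofibre-like barcodes and 10672 in the smaller committed-like cluster, and mural-like cells held Acta2 (3529) with little else.

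The other clusters held the family in other proportions, whether or not they were named as another cell type. Mural-like cells, which wrap small vessels, held 3529 CPM of Acta2 and 35.4 CPM of Acta1, so Acta2 made up 98.5% of their alpha actin UMIs. Myofibre-like barcodes held the adult set, with 63641 CPM of Acta1, 74933 of Mylpf and 44883 of Myl1 beside 28.8 of Acta2. Myl4 stood at 1780 CPM there and Actc1 at 5792 CPM. Macrophage-like cells held 70.0 CPM of Acta1, 49.4 of Myl1 and 85.8 of Mylpf, and Schwann-like cells 75.1, 49.5 and 87.9 CPM. An unnamed cluster of 1706 cells led by Tnfsf11 and Spp1 held 2292 CPM of Acta2, which was 97.3% of its alpha actin. The single-library clusters held all of the set at intermediate levels, with 1893 CPM of Acta1, 913 of Actc1, 2374 of Acta2, 2361 of Mylpf, 959 of Myl1 and 576 of Myl4.

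The ratios between the genes set classes apart. Acta1 per Mylpf UMI was 0.842 in quiescent-like, 0.816 in macrophage-like, 0.854 in Schwann-like and 0.849 in myofibre-like cells, but 1.43 in committed-like cells. Myl4 per Myl1 UMI was 0.904 in committed-like and 0.0397 in myofibre-like cells, with 0.311 in quiescent-like and 0.439 in macrophage-like cells. Actc1 per Acta1 UMI was 0.822 in committed-like, 0.224 in quiescent-like and 0.0910 in myofibre-like cells. In macrophage-like cells it was 1.54 in miR-501KO replicate 1 and between 0.247 and 0.618 in the other libraries, so no single value is read there. Quiescent-like and macrophage-like cells were thus near the Acta1 to Mylpf ratio of myofibre-like barcodes, but not near their Myl4 to Myl1 ratio.

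Isoform shares were also read from cells ordered by the summed UMIs of 50 other sarcomere genes, called the sarcomere index here, after thinning to 5000 UMIs. Mural-like, macrophage-like, Schwann-like, myofibre-like and single-library clusters were left out. The other unnamed clusters stayed in, among them those of 228 and 21 cells with fibroblast and endothelial markers and 1 of 579 cells with a median of 28.9% mitochondrial UMIs. There were 1314 cells under 10 UMIs of the index, 5629 from 10 to 29, 1590 from 30 to 99 and 352 at 100 or more. The share of Myog+ cells in these bins was 9.21%, 21.1%, 65.7% and 96.9%, and that of Pax7+ cells 52.1%, 39.4%, 17.9% and 4.26%.

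The 3 actins and the light chains were first high in different bins of the index. Acta2 stood at 556, 1481, 3473 and 5386 CPM from the lowest bin to the highest. Actc1 stood at 21.1, 77.7, 1286 and 5680 CPM. Acta1 stayed at 68.7 and 71.5 CPM in the first 2 bins and then stood at 515 and 11265 CPM. The light chains followed the course of Acta1. Mylpf went through 74.8, 87.4, 350 and 8310 CPM, Myl1 through 47.2, 53.7, 205 and 4228 CPM and Myl4 through 24.7, 28.5, 172 and 3742 CPM. Of the alpha actin UMIs, Acta2 held 86.1%, 90.8%, 65.8% and 24.1%, Actc1 3.27%, 4.76%, 24.4% and 25.4%, and Acta1 10.6%, 4.39%, 9.76% and 50.4%. The share of Myl4 among essential light chains was 34.3%, 34.7%, 45.7% and 47.0%.

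**Figure D3:**
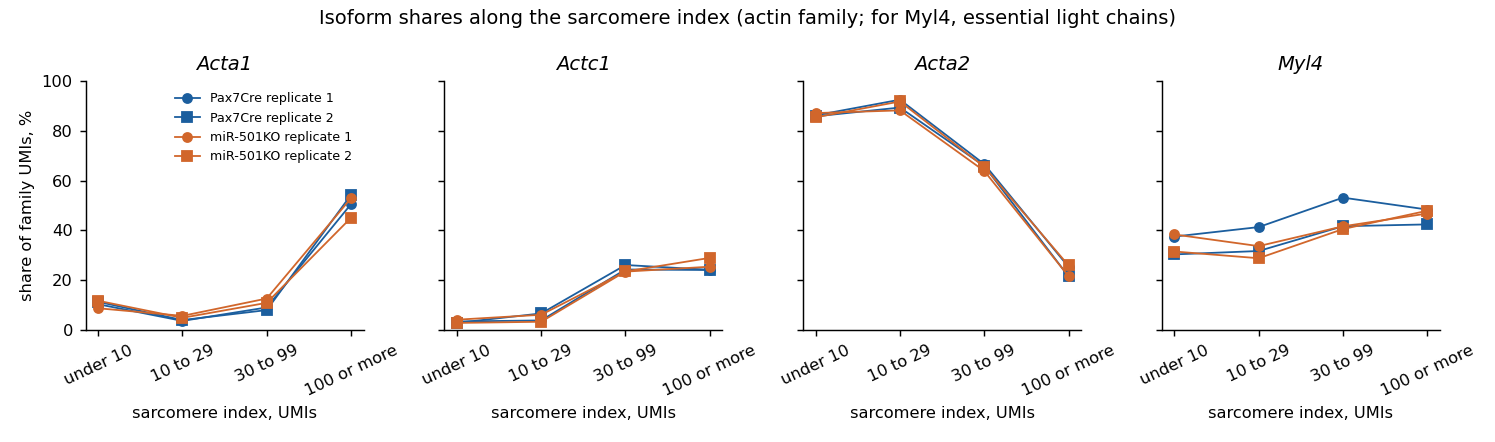
Share of the family's UMIs (y axis, %) held by Acta1, Actc1, Acta2 and Myl4 in bins of the sarcomere index (x axis, UMIs of 50 other sarcomere genes per thinned cell), with 1 line per library. In every library the share of Acta2 was lowest and that of Acta1 highest in the last bin, where Acta1 held between 45.1% and 54.3% of alpha actin.

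In the highest bin the share of Acta1 was 50.5%, 54.3%, 52.9% and 45.1% in the 4 libraries, and that of Acta2 25.4%, 21.5%, 21.6% and 25.9%. The index and the 8 genes were counted in the same cells, so this order is a description of those cells, with no test.

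Within a gate the UMIs were spread unevenly over cells. In thinned Myog+ cells, without the single-library and myofibre-like clusters, the top 10% of cells held 80.2%, 89.0%, 71.7% and 76.5% of the Acta1 UMIs. For Mylpf they held 84.0%, 90.5%, 73.9% and 78.0%, for Myl1 72.4% to 84.6% and for Myl4 75.5% to 86.9%. For Actc1 they held less, 47.6% to 53.4%, and for Acta2 28.7% to 32.5%. The median Myog+ cell held 10 to 12 Acta2 UMIs of 5000 and 1 or 2 of Actc1.

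Single cells often carried all 3 actins. Of 2809 Myog+ cells outside the single-library clusters, 1187 held at least 20 alpha actin UMIs after thinning, and in 60.9% of these all 3 were present (62.2%, 52.0%, 66.1% and 60.5% by library). Acta2 made up the majority in 48.5% of them, Actc1 in 13.7% and Acta1 in 11.4%, and no actin did in 26.4%. Among 634 such cells of the single-library clusters, 98.3% held all 3 and 64.2% had no majority actin. All 76 such mural-like cells were mostly Acta2, and all 30 myofibre-like barcodes were mostly Acta1. Free RNA can add single UMIs of an actin to a cell, and its part in these shares was not tested.

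Across Myog+ cells within a library, outside the single-library clusters, Acta1 went along with Mylpf (Pearson's r from 0.772 to 0.863 over the 4 libraries), Myl4 (0.752 to 0.828) and Myl1 (0.750 to 0.818). Its correlation was lower with Actc1 (0.529 to 0.682) and Acta2 (0.235 to 0.366), and Myl2 and Myl3 gave too few UMIs to read one. Acta2 was nearer to Actc1 (0.425 to 0.536) than to Mylpf (0.117 to 0.261). Cells of a library share their preparation, and these values are descriptions.

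The genes whose level was most like each of the 8 were sought over 24 sums of a class in a library, among 8731 genes. For Acta1 they were Itgb1bp2 (Pearson's r 0.976), Lmod2 (0.968) and Actn2 (0.967), and for Actc1 Tnni1 (0.986), Casz1 (0.975) and Ctrb1 (0.972). For Acta2 they were Tpm2 (0.965), Jph2 (0.946) and Cox6c (0.933). Tnnc2 (0.974), Ckm (0.969) and Actn2 (0.963) were most like Myl1, and Tnnc2 (0.975), Actn2 (0.964) and Macrod1 (0.961) most like Mylpf. Myl4 was nearest to Tnnc1 (0.980), Lmod2 (0.979) and Myh8 (0.969). Myl2 was less like any gene, with Myom2 (0.761), Myh8 (0.758) and Usf3 (0.729) nearest, and Myl3 was too low to read. Sums of 1 library share mice and depth.

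The second question was whether deletion of miR-501 alters the levels of the 8 genes. In edgeR's quasi-likelihood test, 0 of 15725 genes changed over all cells (0% called, 440 at an unadjusted p under 0.05, 12 by DESeq2), 0 of 13918 in Myog+ cells (0%, 430 unadjusted, 8 by DESeq2) and 0 of 13410 in Pax7+ Myog- cells (0%, 462 unadjusted, 11 by DESeq2). None of the 8 genes and none of the genes of the 6 lists was therefore called. In a sum over cells, fewer cells of a type and less RNA per cell cannot be told apart.

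Over all cells the groups overlapped, after TMM scaling, for each of the 7 genes tested, while 26.4% of all genes did not overlap. Acta1 stood at 891, 1680, 1405 and 796 CPM, Myl1 at 357, 1054, 729 and 365 CPM and Mylpf at 696, 1725, 1404 and 725 CPM. For all 3, Pax7Cre replicate 2 was highest, and the 18 myofibre-like barcodes of that library held 68.2% of its Acta1, 77.2% of its Myl1 and 77.3% of its Mylpf UMIs. In the other libraries these barcodes held 4.17% to 30.4% of Acta1. The fitted log2 change by genotype was -0.23 (SE 0.35) for Acta1, -0.37 (SE 0.52) for Myl1 and -0.19 (SE 0.46) for Mylpf. Without the myofibre-like barcodes, a setting chosen after the data were seen, the changes turned to 0.21, 0.32 and 0.47 and were not called.

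**Figure D4:**
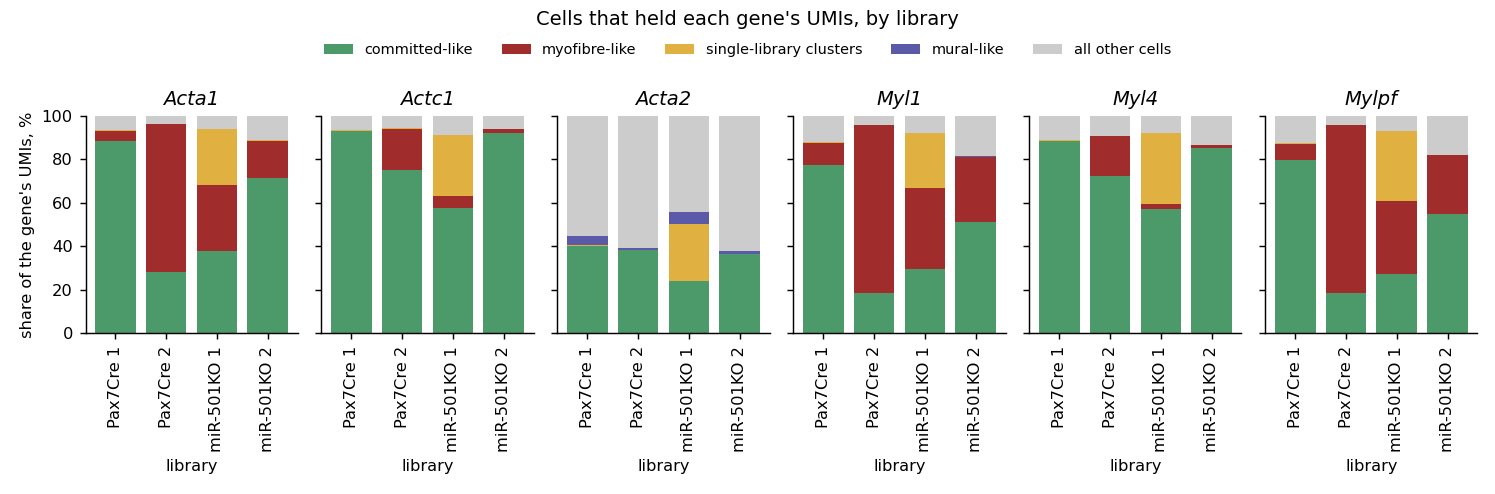
Share of each gene's UMIs (y axis, %) from committed-like, myofibre-like, single-library, mural-like and all other cells, stacked for each library (x axis). In Pax7Cre replicate 2, 68.2% of Acta1 and 77.3% of Mylpf UMIs came from 18 myofibre-like barcodes, whereas Acta2 came from them by at most 0.032%.

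In Pax7Cre replicate 2 the same barcodes held 19.0% of Actc1 and 18.3% of Myl4 UMIs, and at most 0.032% of Acta2 UMIs in any library. Actc1 stood at 655, 616, 618 and 599 CPM, Acta2 at 2186, 1794, 1723 and 2006 CPM and Myl4 at 300.3, 203, 342 and 204 CPM. The log2 changes were -0.08 (SE 0.10), -0.11 (SE 0.16) and 0.09 (SE 0.29). In miR-501KO replicate 1, the single-library clusters held between 25.3% (Myl1) and 32.4% (Myl4) of the UMIs of these 6 genes.

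In Myog+ cells the levels of the 2 genotypes were close. The levels of Pax7Cre replicate 2 and of miR-501KO replicate 2 each include 1 myofibre-like barcode. Acta1 stood at 2358, 2088, 2213 and 2213 CPM and Actc1 at 1880, 1732, 1404 and 2149 CPM. Acta2 stood at 3431, 3197, 2600 and 3567 CPM. Both values of one group lay within or across those of the other for each actin, and 33.5% of all genes did not overlap. The log2 changes were 0.07 (SE 0.17), 0.04 (SE 0.20) and -0.04 (SE 0.18). Among the light chains, Mylpf stood at 1676, 1617, 2086 and 1626 CPM, Myl1 at 840, 970, 1010 and 755 CPM and Myl4 at 798, 537, 763 and 672 CPM. Their log2 changes were 0.26 (SE 0.21), 0.06 (SE 0.22) and 0.18 (SE 0.24), and the edgeR adjusted p of the 7 genes tested lay between 0.87 and 0.967. Without the single-library clusters, miR-501KO replicate 1 held 2512 CPM of Acta1, 1853 of Actc1, 2813 of Acta2, 1826 of Mylpf, 1052 of Myl1 and 929 of Myl4, and the log2 changes of these 6 genes lay between -0.09 (Acta2) and 0.22 (Myl4), with none called. With the run as a replicate block, the count of called genes in Myog+ cells rose from 0 to 298.

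Isoform shares in Myog+ cells were compared as well, since they do not depend on the scaling of a library. Acta1 held 30.7%, 29.8%, 35.6% and 27.9% of alpha actin UMIs, Actc1 24.5%, 24.7%, 22.6% and 27.1%, and Acta2 44.7%, 45.6%, 41.8% and 45.0%. The difference of miR-501KO from Pax7Cre was 1.5 percentage points for Acta1 (exact two-sided permutation p = 1), 0.242 for Actc1 (exact p = 1) and -1.74 for Acta2 (exact p = 0.667). Myl4 held 48.7%, 35.6%, 43.0% and 47.1% of the essential chains, a difference of 2.88 points (exact p = 1), and Mylpf held 99.9% of the regulatory chains in each library, a difference of 0.011 points (exact p = 1). The low Myl4 share of Pax7Cre replicate 2 was 42.8% without the 1 myofibre-like barcode among its Myog+ cells. With 2 libraries against 2, the smallest p this test can give is 0.333, so it cannot reach 0.05.

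In Pax7+ Myog- cells, 3 of the genes were higher in both miR-501KO libraries than in both Pax7Cre libraries, where 26.6% of all genes did not overlap between the groups. They were Acta1 (80.4 and 90.4 against 125 and 148 CPM), Myl1 (64.1 and 67.9 against 100.3 and 117 CPM) and Mylpf (101.5 and 101.1 against 153 and 196 CPM). The log2 changes were 0.62 (SE 0.15), 0.67 (SE 0.14) and 0.73 (SE 0.16), and the edgeR adjusted p of 0.434, 0.348 and 0.371 did not pass. Acta2 and Myl4 overlapped between the groups, and Actc1 did so after TMM scaling but not as CPM (25.1 and 21.7 against 29.6 and 25.4). Actc1, Acta2 and Myl4 had log2 changes of 0.17 (SE 0.14), -0.20 (SE 0.17) and -0.01 (SE 0.21). The difference between these genes was not tested.

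**Figure D5:**
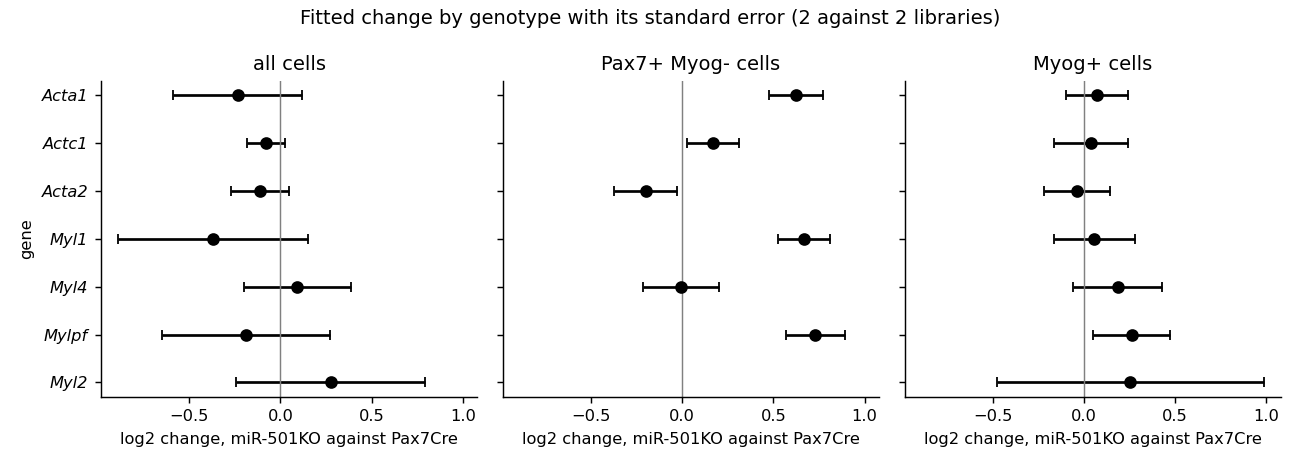
Fitted log2 change (x axis, miR-501KO against Pax7Cre) with its standard error as bars, for the genes tested in all cells, Myog+ cells and Pax7+ Myog- cells, 2 against 2 libraries. Acta1, Myl1 and Mylpf lie at 0.62 to 0.73 in Pax7+ Myog- cells and none passed the adjusted threshold.

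The call for these 3 genes depended on the setting. With the run as a replicate block, 135 genes were called in Pax7+ Myog- cells and Mylpf was among them (edgeR adjusted p = 0.0411). Mylpf was called in 4 of 15 alternatives. They were DESeq2 (adjusted p = 0.0152), cells of at least 2000 UMIs (0.00143), the block, and miR-501KO replicate 1 left out. Of all genes tested in this gate, DESeq2 called 11 of 13410 and the setting of 2000 UMIs 36 of 12554. Without miR-501KO replicate 1 that group has 1 library, which was assumed to vary like those of the other group, so a call there is not read. The setting of 2000 UMIs also thinned cells to 2000 UMIs for the gates, which left 517, 348, 365 and 467 Pax7+ Myog- cells. Myl1 was called in 3 of 15, with DESeq2 (0.026), at 2000 UMIs (0.00226) and without miR-501KO replicate 1. Acta1 was called in 1 of 15, at 2000 UMIs (0.00571).

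The same genes were read within the quiescent-like clusters and in macrophage-like cells of the same libraries. In quiescent-like cells Acta1 stood at 106, 125, 213 and 215 CPM, Myl1 at 80.5, 93.9, 162 and 170 CPM and Mylpf at 124, 139, 232 and 288 CPM. In macrophage-like cells Acta1 stood at 64.4, 70.7, 78.8 and 66.6 CPM, Myl1 at 35.7, 61.6, 58.1 and 50.6 CPM and Mylpf at 72.7, 89.7, 91.0 and 96.9 CPM. The quiescent-like values did not overlap between the genotypes for these 3 genes. In macrophage-like cells Acta1 and Myl1 overlapped and Mylpf did not. How many of all genes did not overlap in these classes was not counted. The 3 genes were picked from the Pax7+ Myog- gate, which shares cells with the quiescent-like clusters. Their values here are thus not a separate test. The part of free RNA in the difference was not tested.

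The third comparison asked whether the rise from Pax7+ Myog- to Pax7- Myog+ cells differs by genotype. The interaction called 0 of 14044 genes (0%, 401 at an unadjusted p under 0.05, 4 by DESeq2). The rise in miR-501KO minus that in Pax7Cre was, on the log2 scale, -0.53 (SE 0.25) for Acta1, -0.65 (SE 0.27) for Myl1, -0.49 (SE 0.29) for Mylpf, -0.13 (SE 0.28) for Actc1, 0.17 (SE 0.24) for Acta2 and 0.16 (SE 0.21) for Myl4. The edgeR adjusted p was 0.857 for Acta1 and Myl1. This fit reuses the Pax7+ Myog- sums of the genotype comparison above, so the interaction is not a result separate from it. Without miR-501KO replicate 1 the interaction was -0.71 for Acta1, -1.01 for Myl1 and -0.90 for Mylpf. Without miR-501KO replicate 2 it was -0.36 for Acta1, -0.48 for Actc1 and -0.30 for Myl1. In both cases miR-501KO was left with 1 library, which was assumed to vary like those of the other group, so no call is read there.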

How the data were processed

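Droplet libraries (10x Genomics 3′ chemistry) of sorted MPs were made in 2 runs, 1 library per genotype and run. The authors deposited raw UMI counts per gene and barcode, with no normalization. Per the file headers the counts came from Cell Ranger 6.0.2, another version than the study's methods name, and per the submitters' processing notes the build was GRCm39. The reference sequences used here are of GRCm38.p6, so no coordinates of the files are given.

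Of 16519 barcodes, 10450 had at least 5000 UMIs and 1000 genes. For clustering, each cell was scaled to 10000 UMIs and its values were log-transformed (scanpy 1.11.5, Python 3.11.15, numpy 2.4.6, scipy 1.17.1). The 2000 most variable genes, without the 8 genes and the 50 other sarcomere genes, gave 30 principal components, a graph of 15 neighbours and Leiden clusters at resolution 0.5. Clusters were named from 13 marker lists, with a marker raised 1.5-fold and in at least 10% of cells, and at least 3 such markers. Scrublet called 19 cells (0.182%), too few for it to have worked, so removing the 5% of cells with the highest scores was an alternative. Gates used cells thinned to 5000 UMIs.

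Raw UMIs were summed per library and gate and tested in edgeR 4.0.16 (limma 3.58.1, R 4.3.3; TMM, filterByExpr, quasi-likelihood, Benjamini-Hochberg over all genes tested, threshold 0.05). Gates of 1 library were compared in 1 fit of 12 sums with the library as a block. Genotypes were compared with 2 against 2 libraries and no block, and isoform shares with an exact permutation test. The run number in the labels pairs the libraries. The run difference correlated between the genotypes at 0.226 over all cells, 0.421 in Myog+ and 0.058 in Pax7+ Myog- cells. The Wilson intervals (95%) cover counting error only. The tests were checked on simulated data.

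All 8 genes are named. Of each of 6 lists at most the 3 genes with the highest mean CPM are named, and of all genes with a mean of at least 10 CPM the 3 whose log2(CPM + 1) correlated best with each of the 8. Myl6b, Myl9, Actg2 and Myl12b are outside this rule and were named after their values were seen. The 8 genes and the lists were chosen with earlier results of these data known. Alternatives were DESeq2 1.42.0, RLE size factors, no filter, the run as a replicate block, no library block, each library left out, at least 2000 UMIs (with gates on cells thinned to 2000), at most 10% mitochondrial UMIs, high Scrublet scores, single-library or myofibre-like clusters removed, a gate of 2 Myog UMIs, gates on unthinned UMIs and Leiden resolutions of 0.3 and 1.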

Additional observations from a re-analysis of the deposited data

How the results depend on the processing

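The rise between Pax7+ Myog- and Pax7- Myog+ cells kept its call for the 7 genes tested in all 15 alternatives, and leaving out a library gave 5400 to 7857 called genes. The run as a replicate block, which pairs the libraries, called 298 genes in Myog+ and 135 in Pax7+ Myog- cells where the unpaired fit called 0, and turned the Myl4 log2 change in Pax7+ Myog- cells to 0.048. Of the 8 genes only Mylpf in Pax7+ Myog- cells gained a call by it. DESeq2 called 12 genes over all cells, 8 in Myog+ cells, 11 in Pax7+ Myog- cells and 4 for the interaction. Without a filter on low counts, 43 genes were called in Myog+ cells and 33 for the interaction. In Pax7+ Myog- cells the count was 36 at 2000 UMIs, which lowered both the minimum and the depth of the gates, 6 at most 10% mitochondrial UMIs and 1 with unthinned gates. Leaving out a library gave 0 to 3 genes over all cells, 3 to 251 in Myog+ cells, 9 to 90 in Pax7+ Myog- cells and 21 to 3990 for the interaction. The first step to Pax7+ Myog+ cells had 521 genes, against 196 at 2000 UMIs, 1380 without the single-library clusters, 1617 with 2 Myog UMIs, 1667 with unthinned gates and 213 to 847 with a library left out. The second step had 2891 genes, against 5395 without the single-library clusters, 807 with 2 Myog UMIs, 7089 with unthinned gates and 1077 to 5136 with a library left out. At 2000 UMIs the first step lost Acta1 (edgeR adjusted p = 0.243), Myl1 (0.608), Myl4 (0.11) and Mylpf (0.426), and unthinned gates lost Myl1 (0.103) and Mylpf (0.054). With 2 Myog UMIs the second step lost Acta1 (0.186), Acta2 (0.172), Myl1 (0.16), Myl4 (0.0873) and Mylpf (0.0939).

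Log2 changes by genotype that missed the threshold also changed sign. With a library left out, the change over all cells ranged from -0.70 to 0.25 for Acta1, -0.28 to 0.061 for Acta2, -0.95 to 0.57 for Myl1, -0.32 to 0.43 for Myl4, -0.74 to 0.56 for Mylpf and -0.73 to 0.84 for Myl2. In Myog+ cells it ranged from -0.039 to 0.19 for Acta1, -0.22 to 0.25 for Actc1, -0.21 to 0.11 for Acta2, -0.26 to 0.31 for Myl1, -0.10 to 0.53 for Myl4, -0.018 to 0.49 for Mylpf and -1.56 to 0.98 for Myl2. It ranged from -0.36 to 0.47 for Myl4 in Pax7+ Myog- cells, and the interaction from -0.48 to 0.22 for Actc1 and -2.49 to 2.14 for Myl2. Without the myofibre-like barcodes the change over all cells was 0.21 for Acta1, 0.32 for Myl1 and 0.47 for Mylpf. Without the single-library clusters it was -0.13 for Myl4 over all cells and -0.040 for Myl1 in Myog+ cells, and the interaction was 0.0047 for Actc1 and 0.15 for Myl2. With unthinned gates it was -0.12 for Acta1, 0.033 for Acta2, -0.28 for Myl1 and -0.087 for Mylpf in Myog+ cells and -0.028 for Actc1 in Pax7+ Myog- cells. With 2 Myog UMIs it was -0.044 for Actc1 in Myog+ cells. At 2000 UMIs it was 0.11 for Myl4 in Pax7+ Myog- cells, and the interaction was -0.0052 for Myl4 and 0.20 for Myl2. At most 10% mitochondrial UMIs it was 0.011 for Myl4 in Pax7+ Myog- cells.

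No difference between genotypes in the isoform shares of Myog+ cells was shown, and its sign turned in the settings given here, in percentage points. With unthinned gates it was -2.04 for Acta1, 0.294 for Acta2 and -0.0021 for Mylpf. At 2000 UMIs it was -0.718 for Actc1 and -1.04 for Myl4, with 2 Myog UMIs -1.08 and -0.657, and without the myofibre-like barcodes -0.226 and -0.477. Without the single-library clusters it was -0.035 for Mylpf. Run 2 alone gave -1.84 for Acta1 and, with no change of sign, 0.0672 for Mylpf, and run 1 alone gave -1.93 for Actc1, -5.70 for Myl4 and -0.0453 for Mylpf.

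What caused these shifts was not tested. At resolution 0.3 no committed-like or myofibre-like class formed, so their levels have no value there. With 2 libraries per genotype, depth and number of pools limit small changes, and Myl2 and Myl3 hold too few molecules for one.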
